A study of Mus musculus with 10 samples.

Results

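Cytochromes P450 of families 1 to 4 were examined in mouse liver RNA after activation of CD95 (Fas), a death receptor that is known to drive hepatocytes into apoptosis. The members were the protein-coding genes whose symbol is Cyp followed by a family number from 1 to 4, a subfamily letter and a gene number, which gave 75 of the 38922 genes in the files: 3 in family 1, 48 in family 2, 7 in family 3 and 17 in family 4. RNA was sequenced from whole livers of 5 saline-injected mice and of 5 mice injected with CD95-Ab, a CD95-activating antibody, at an intraperitoneal dose of 0.5 µg/g of body weight, and all livers were collected after 6 h. All 10 animals were wild-type male C57BL/6N mice, 6 weeks old and fed standard chow. Each mouse gave 1 library, so n = 5 mice per group throughout. The comparison asked which of these genes changed in the injured liver.

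P450 enzymes are heme proteins of the endoplasmic reticulum that insert an oxygen atom into drugs, toxins, steroids and fatty acids, with electrons passed on by P450 reductase. In liver most of families 1 to 3 is made by hepatocytes, mainly those around the central vein, and many of the genes are induced by nuclear receptors that sense foreign chemicals, such as CAR (Nr1i3) and PXR (Nr1i2), or by the Ah receptor. Family 4 enzymes mainly hydroxylate fatty acids and eicosanoids, and the Cyp4a genes are classical targets of the fatty acid receptor PPARα.

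Depth ranged from 25965699 to 62097636 counts per mouse, so that 3 counts in a mouse came to between 0.0483 and 0.116 CPM, which are counts relative to the library total. CPM values were scaled with TMM factors, which adjust the totals for a few very abundant genes, and levels of different genes were compared in FPKM, which also divides by transcript length. A gene was called changed when its false discovery rate (FDR), from edgeR's quasi-likelihood test with the Benjamini-Hochberg adjustment over all 13719 genes tested, was 0.05 or less. Values given with a standard error (SE) or an FDR are log2 fold changes of CD95-Ab against saline.

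The liver identity of the samples was clear from its markers, and many, though not all, markers of other cell types were higher after CD95-Ab. The summed level of 11 hepatocyte markers, albumin (Alb) among them, was 120070.0 to 147000.0 CPM in saline-injected mice and 58316 to 97584 CPM after CD95-Ab, with 6 of 11 lower and none higher. Of 13 neutrophil markers, 8 were tested and all 8 were higher, and the summed level went from 4.54 to 11.6 CPM to 114 to 479.7 CPM. Markers of erythroid cells were higher in 5 of 5 cases, of macrophages in 4 of 9, of endothelium in 6 of 7, of stellate cells and fibroblasts in 4 of 7, of cholangiocytes in 4 of 5 and of lymphocytes in 7 of 9, and none was lower. Over all genes tested, 22.0% were lower and 25.4% higher. Macrophage markers that did not pass the test included Clec4f (0.098, FDR = 0.801), Vsig4 (-0.019, FDR = 0.955) and Timd4 (0.43, FDR = 0.307). The summed erythroid markers ranged from 135 to 323 CPM and from 1064 to 33995 CPM in the saline and CD95-Ab groups, the macrophage markers from 157 to 492 and 512 to 891, the endothelial markers from 69.0 to 139 and 207 to 388, the stellate and fibroblast markers from 139 to 217 and 318 to 600.1, the cholangiocyte markers from 18.3 to 33.8 and 48.3 to 186, and the lymphocyte markers from 1.72 to 5.81 and 8.79 to 16.7. No marker was at 0 in every mouse, although the granule genes Mpo, Elane, Camp and Ltf and the defining neutrophil gene Ly6g were too low to be tested. The part of these cell types in the P450 values was not tested, and in whole liver fewer hepatocytes and less RNA per hepatocyte cannot be told apart.

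The P450 share of the liver transcriptome was smaller after CD95-Ab. The 75 members together took 1.96%, 1.76%, 2.86%, 2.66% and 2.16% of all counts in saline-injected mice 1 to 5 and 1.18%, 1.24%, 1.51%, 1.45% and 1.57% in mice 1 to 5 injected with CD95-Ab. The groups did not overlap, with means of 2.28% ± 0.47 and 1.39% ± 0.17 (SD, n = 5 mice each). Per length, their share of summed FPKM was 1.75% ± 0.36 and 0.97% ± 0.083. Of the 56 members with enough counts to be tested, 30 were lower and 2 were higher, that is 53.6% and 3.57% of them, against 22.0% of all genes tested that were lower and 25.4% that were higher. The median log2 fold change was -0.74 over the tested members and 0.01 over all genes tested. Among them, 7 members were called with a log2 fold change of -2 or less, 12.5% of those tested against 1.11% of all genes, and 1 member was called with 2 or more, 1.79% against 6.59%.

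In 19 members, 33.9% of those tested, every mouse injected with CD95-Ab lay below every saline-injected mouse, which held for 14.7% of all genes tested. Only Cyp4f18 had every treated mouse above every control, 1.79% of the tested members against 18.6% of all genes. When the 11 hepatocyte markers set the scale in place of TMM, the median of all genes moved to 0.50, and 18 members were lower and 5 higher, with a member median of -0.25. The shares of all genes called on that scale were not counted. Counts on it, here and below, therefore cannot be set against the 22.0% and 25.4% of the TMM scale. Of the 30 tested members that share at least one stretch of 100 coding bases with another gene, 18 were lower and none higher, and of the 26 without such a stretch 12 were lower and 2 higher.

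**Figure D1:**
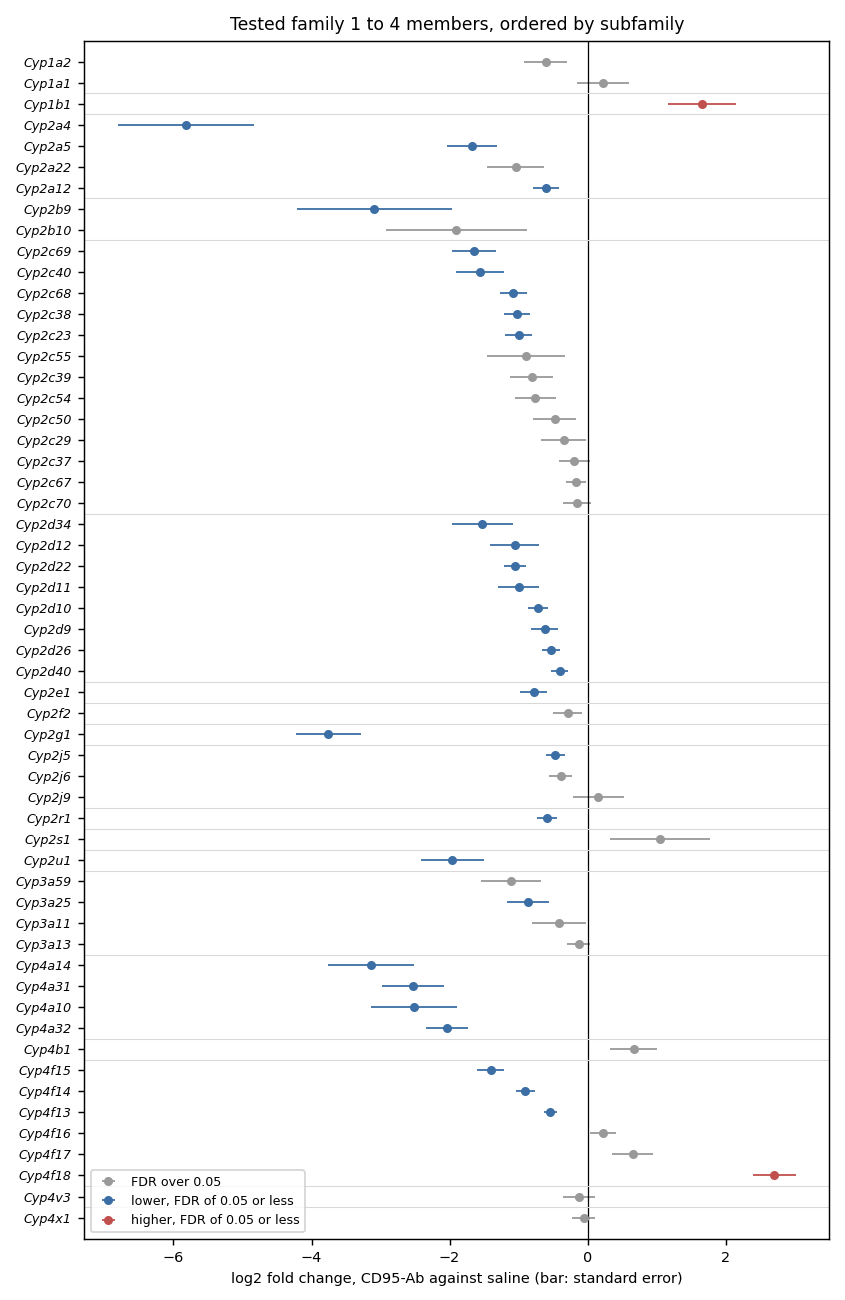
Log2 fold change of CD95-Ab against saline for the 56 tested members, with bars for the standard error, ordered by subfamily. The 30 members in blue were lower and the 2 in red, Cyp1b1 and Cyp4f18, were higher at an FDR of 0.05 or less.

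The most abundant members were not those with the largest changes. In FPKM, Cyp2e1, which oxidizes ethanol and acetaminophen, and Cyp3a11, the main drug-metabolizing enzyme of the Cyp3a subfamily, led in both groups. Cyp2e1 stood at 2835 ± 576 FPKM in saline-injected mice and at 1573 ± 293 FPKM after CD95-Ab, and Cyp3a11 at 2545 ± 840.1 FPKM and 1779 ± 705 FPKM (SD, n = 5). They held 45.0% of the summed mean FPKM of all members in saline-injected mice and 46.3% after CD95-Ab. By mean FPKM in saline-injected mice the next were Cyp2d9, Cyp2c29, Cyp2f2, Cyp2d10, Cyp2c70, Cyp2d26, Cyp2a12 and Cyp2c50. Among these 10 members 5 were called, all lower, while 22.0% of all genes tested were lower.

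Cyp2e1 was lower in every treated mouse than in any control. Its level was 3747, 3818, 6392, 5445 and 5118 CPM in saline-injected mice 1 to 5, and 3147, 2689, 2365, 3284 and 2767 CPM in mice 1 to 5 injected with CD95-Ab. The groups were separate, and the log2 change was -0.78 ± 0.20 (SE, FDR = 0.00643). On the hepatocyte marker scale it was -0.29 and was no longer called (FDR = 0.258).

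Cyp3a11 was more variable. It was at 4161, 2771, 7286, 7660.4 and 6964 CPM in the 5 saline-injected mice and at 1459.6, 3326, 6216, 5251 and 5345 CPM in the 5 mice injected with CD95-Ab. The groups overlapped widely, and a log2 fold change of -0.42 ± 0.39 (SE, FDR = 0.4) did not pass the test and turned to 0.060 on the hepatocyte marker scale.

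**Figure D2:**
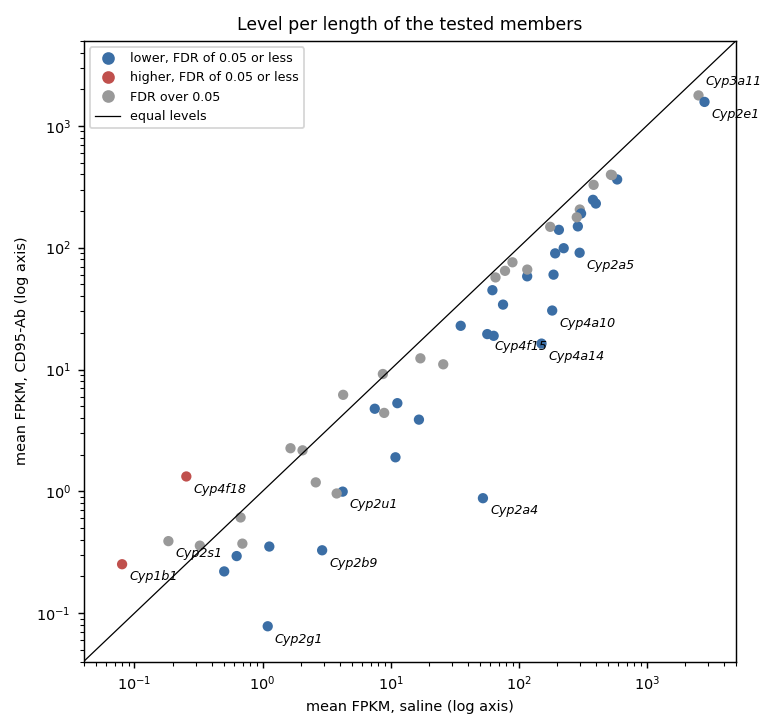
Mean FPKM of each tested member in 5 saline-injected mice against 5 mice injected with CD95-Ab, on log axes, with a line of equal levels. Cyp2e1 and Cyp3a11 lie at the top, just below the line, Cyp2a4, Cyp4a10 and Cyp4a14 lie well below it, and Cyp4f18 and Cyp1b1 lie above it at low levels.

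All 8 pericentral P450 genes and the 1 periportal gene had estimates below 0 on the TMM scale. Of the 8 pericentral genes, 2 were called lower (Cyp2e1 and Cyp2a5) and 6 did not pass the test. That is close to the share over all genes tested, of which 22.0% were lower. The median log2 fold change of the 8 genes was -0.54. On the hepatocyte marker scale it was -0.061, with 4 estimates below 0 and 4 above. Cyp1a2, which activates arylamines, went from 525 ± 228 CPM to 344 ± 113 CPM and did not pass the test, with -0.61 ± 0.31 (SE, FDR = 0.124). It was called with limma on log2 FPKM (FDR = 0.044), when saline mouse 2 was left out (-0.78, FDR = 0.0456) and without CD95-Ab mouse 4 (-0.84, FDR = 0.0421). The periportal gene Cyp2f2, an enzyme known for activating naphthalene, was at 912 ± 209 CPM and 747 ± 179 CPM (SD, n = 5), with -0.29 ± 0.21 (SE, FDR = 0.282). Cyp2c29, an epoxygenase, had -0.35 ± 0.33 (SE, FDR = 0.406) and Cyp2c50 had -0.48 ± 0.31 (SE, FDR = 0.223), and like Cyp2f2 both turned positive on the hepatocyte marker scale, to 0.15 and 0.008.

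**Figure D3:**
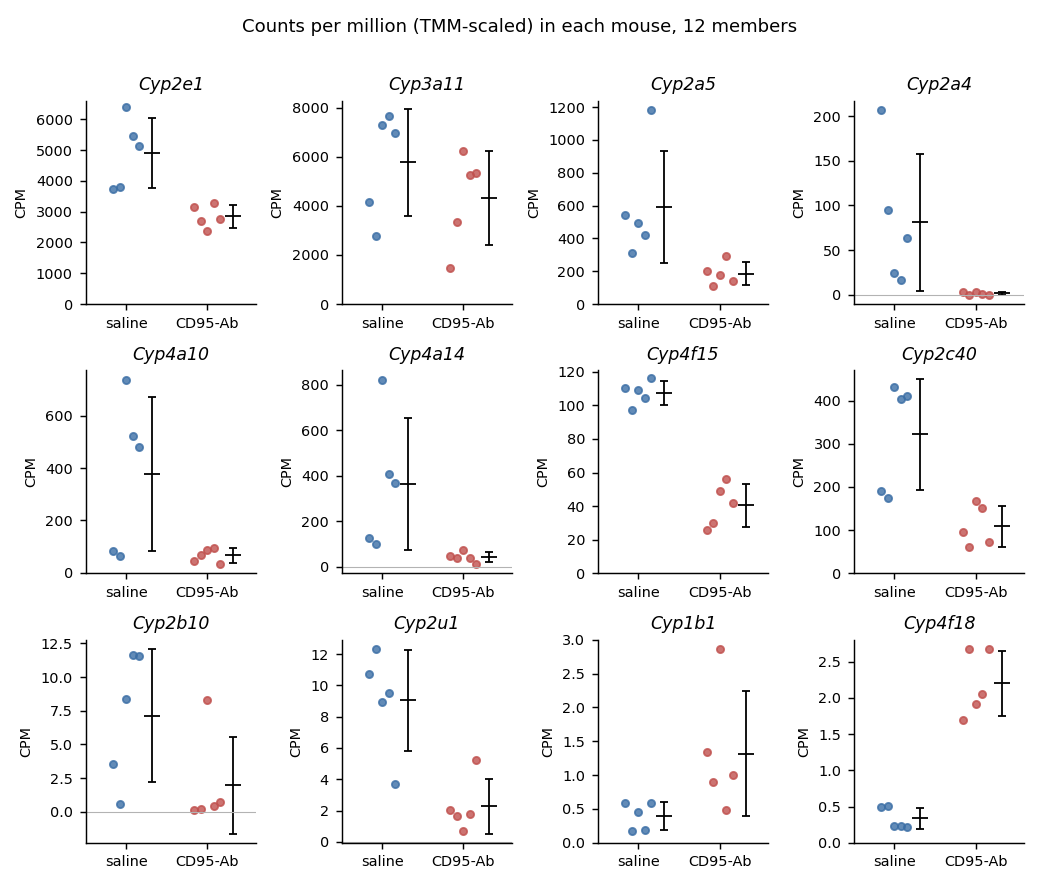
TMM-scaled CPM of 12 members, with 1 point per mouse (blue for saline, red for CD95-Ab) and the group mean with its SD beside the points. The groups are separate for Cyp2e1, Cyp2a5, Cyp2a4, Cyp4a14, Cyp4f15, Cyp2c40 and Cyp4f18 and overlap for the other members shown.

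Cyp2a4 and Cyp2a5, a steroid hydroxylase and a coumarin hydroxylase that are near-identical in sequence, both fell. Cyp2a4 (ENSMUSG00000074254, chromosome 7, 26307169 to 26315088) and Cyp2a5 (ENSMUSG00000005547, chromosome 7, 26835305 to 26843548, both on the plus strand of GRCm38) differed at 23 of 1485 coding bases, an identity of 98.45%. Of the 100-base windows of the coding sequence, 13.2% of those of Cyp2a4 occur exactly in Cyp2a5, and reads that fit both genes were shared out by the authors' software. The stretch of exon 4 below, coding bases 536 to 625, was chosen as 90 bases within 1 exon with the most differences. The 4 positions that differ are in capitals (chr7:26308970-26309059 and chr7:26837133-26837222, GRCm38, plus strand). Counted from the first base of the start codon, with the base of Cyp2a4 first, the differences are C555T, T603G, A607C and C625T, and the last of them lies in codon 209.
Cyp2a4: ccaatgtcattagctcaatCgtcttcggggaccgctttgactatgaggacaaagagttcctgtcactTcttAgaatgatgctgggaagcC
Cyp2a5: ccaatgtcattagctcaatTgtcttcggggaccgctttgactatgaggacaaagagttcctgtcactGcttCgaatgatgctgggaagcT

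Cyp2a4 varied widely among controls and was at 3.30 CPM or less in every mouse injected with CD95-Ab. Its level was 206, 95.2, 24.2, 16.2 and 63.2 CPM in saline-injected mice 1 to 5 and 2.92, 0.0637, 3.30, 0.928 and 0.177 CPM in mice 1 to 5 injected with CD95-Ab. The highest treated mouse lay below the lowest control, and the log2 change was -5.82 ± 0.98 (SE, FDR = 0.000506), the lowest among the members. Cyp2a5 was at 541, 308, 495, 423 and 1183 CPM in the controls and at 201, 108, 179.5, 293 and 142 CPM after CD95-Ab. The groups were separate for Cyp2a5 too, with -1.68 ± 0.37 (SE, FDR = 0.00273) on the log2 scale, and saline mouse 5 stood far above the other controls.

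The sum of both genes does not depend on how the reads they share were split between them. It was 748, 404, 519, 439 and 1246 CPM in the controls and 204, 108, 183, 294 and 142 CPM after CD95-Ab, with means of 671 ± 348 CPM and 186 ± 70.8 CPM (SD, n = 5), and every treated mouse lay below every control. The mean sum after CD95-Ab was 27.7% of that in controls. The other pair of the subfamily, Cyp2a12 and Cyp2a22, which are 96.96% identical, changed less: Cyp2a12 was lower with -0.60 ± 0.19 (SE, FDR = 0.021), and Cyp2a22 did not pass the test with -1.04 ± 0.41 (SE, FDR = 0.0552). The call for Cyp2a12 was lost without CD95-Ab mouse 1 (FDR = 0.0503), without CD95-Ab mouse 2 (FDR = 0.057) and on the hepatocyte marker scale, where its log2 fold change was -0.13. Cyp2a22 was called in 5 other scalings, filters or tests (FDR from 0.0126 to 0.0394), and without saline mouse 1 (FDR = 0.0468), saline mouse 2 (FDR = 0.0322) or CD95-Ab mouse 3 (FDR = 0.00495).

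The Cyp4a genes, fatty acid ω-hydroxylases and classical PPARα targets, were lower in all 4 cases tested, while 22.0% of all genes tested were lower. Their median was -2.52, and -2.08 on the hepatocyte marker scale. The genes Cyp4a10, Cyp4a31 and Cyp4a32 lie near each other on chromosome 4, and their coding sequences are 96.01% to 97.19% identical. The same 90 bases of exon 2, coding bases 190 to 279, are shown, again chosen within 1 exon for the most differences. The genes are not all alike at 13 positions here, in capitals, and at 77 of 1530 coding bases compared (chr4:115519630-115519719, chr4:115565010-115565099 and chr4:115602260-115602349, GRCm38, plus strand).
Cyp4a10: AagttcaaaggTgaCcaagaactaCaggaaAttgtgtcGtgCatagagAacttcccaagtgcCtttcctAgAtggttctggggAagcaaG
Cyp4a31: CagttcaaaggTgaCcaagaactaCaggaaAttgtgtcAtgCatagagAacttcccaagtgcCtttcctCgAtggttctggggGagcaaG
Cyp4a32: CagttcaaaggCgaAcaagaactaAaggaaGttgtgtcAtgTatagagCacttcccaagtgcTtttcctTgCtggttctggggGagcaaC

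The level of Cyp4a14 (ENSMUSG00000028715, chromosome 4, 115486200 to 115496142) was 125, 98.0, 822, 408 and 367 CPM in saline-injected mice 1 to 5 and 47.8, 38.1, 71.5, 38.5 and 10.4 CPM in mice 1 to 5 injected with CD95-Ab. The fitted log2 change was -3.14 ± 0.62 (SE, FDR = 0.00145). Saline mice 1 and 2 were low among the controls, yet above the highest treated mouse. Cyp4a10 (ENSMUSG00000066072, chromosome 4, 115518264 to 115533649) was at 84.1, 64.1, 739, 524 and 480.0 CPM and 44.9, 69.7, 86.9, 96.1 and 32.7 CPM in the same order. The same pair of controls fell into the treated range, so the groups overlapped, and the log2 change was -2.52 ± 0.62 (SE, FDR = 0.0059).

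The weaker members of the cluster moved the same way. Cyp4a31 was at 8.35, 10.3, 39.1, 35.9 and 30.2 CPM in controls and 2.79, 3.79, 7.52, 3.92 and 3.50 CPM after CD95-Ab, with -2.53 ± 0.45 (SE, FDR = 0.000754). Cyp4a32 was at 12.4, 11.3, 24.6, 35.5 and 30.0 CPM and 5.68, 6.31, 4.66, 4.64 and 6.33 CPM, with -2.04 ± 0.31 (SE, FDR = 0.000226). Neither gene had overlapping groups. The sum of Cyp4a10, Cyp4a31 and Cyp4a32, which is free of the split of shared reads, was 105, 85.6, 803, 596 and 540.1 CPM in the controls and 53.4, 79.8, 99.1, 105 and 42.6 CPM after CD95-Ab. In this sum saline mouse 2 lay within the treated range and saline mouse 1 at its upper end. The fifth Cyp4a member, Cyp4a29, had 0 counts in every mouse.

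The neighbouring male-biased genes Cyp4a12a and Cyp4a12b, which the symbol rule leaves out because of the last letter, did not follow. Cyp4a12a was at 274 ± 109 CPM and 323 ± 169 CPM (SD, n = 5), with 0.24 ± 0.37 (SE, FDR = 0.618), and Cyp4a12b at 70.3 ± 28.4 CPM and 79.2 ± 52.8 CPM, with 0.17 ± 0.42 (SE, FDR = 0.759). Neither passed the test, and the difference between these genes and the Cyp4a members was not tested. Of the 6 genes outside the rule, Cyp3a41a was the only other one tested, with -0.66 (FDR = 0.349), while Cyp2ab1, Cyp3a41b and Cyp4a30b were too low.

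Of 8 targets of CAR and PXR, 7 were tested and all 7 estimates were below 0, but only 1 was called lower, where 22.0% of all genes tested were. None was higher, the median being -0.42, which turned to 0.060 on the hepatocyte marker scale. The one called gene, Cyp2b9, was at 2.12, 1.22, 10.1, 7.27 and 5.88 CPM in saline-injected mice 1 to 5 and 0.0321, 0, 3.15, 0.161 and 0 CPM in mice 1 to 5 injected with CD95-Ab. CD95-Ab mouse 3 lay within the control range, and the other treated mice were at or near 0. The log2 fold change of -3.09 ± 1.13 (SE, FDR = 0.0399) lost its call when any one of saline mice 3, 4 and 5 or CD95-Ab mice 1, 2, 4 and 5 was left out, with an FDR of 0.0549 to 0.0832 in these 7 cases. It was also lost with DESeq2 (FDR = 0.115) and with edgeR's likelihood ratio test (FDR = 0.053). Without CD95-Ab mouse 3 it was -6.97 (FDR = 0.000251).

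Cyp2b10, the standard readout of CAR activity, had the same treated mouse apart. It was at 3.53, 0.623, 8.34, 11.7 and 11.6 CPM in controls and 0.128, 0.191, 8.32, 0.444 and 0.731 CPM after CD95-Ab. CD95-Ab mouse 3 was again the one high treated mouse and saline mouse 2 the one low control. The log2 fold change of -1.90 ± 1.02 (SE, FDR = 0.145) did not pass the test but did with limma on log2 FPKM (FDR = 0.0303), and without CD95-Ab mouse 3 it was -4.20 (FDR = 0.00205). Cyp2c55, another inducible gene, was at 15.2, 7.17, 17.8, 22.3 and 23.5 CPM in controls and 1.16, 4.39, 20.5, 11.7 and 8.72 CPM after CD95-Ab, with CD95-Ab mouse 3 highest of the treated mice, and did not pass the test, with -0.89 ± 0.56 (SE, FDR = 0.208). Cyp3a13 had -0.13 ± 0.16 (SE, FDR = 0.528) and Cyp2c37 had -0.19 ± 0.23 (SE, FDR = 0.512), and both turned positive on the hepatocyte marker scale, to 0.37 and 0.30.

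In the Cyp2c subfamily, a family of drug and arachidonic acid oxygenases on chromosome 19, 5 of 13 tested members were lower and none was higher. The shares over all genes tested were 22.0% lower and 25.4% higher. The subfamily median was -0.81, and -0.32 with 5 called lower on the hepatocyte marker scale. The genes Cyp2c40, Cyp2c67, Cyp2c68 and Cyp2c69 are 96.54% to 98.1% identical in coding sequence, and 50.68% of the 100-base windows of Cyp2c40 occur in another gene. A stretch of exon 2 is shown for them as the set in which reads are hardest to place. It was chosen as 90 bases within 1 exon with the most differences. The genes are not all alike at 10 positions here, in capitals, and at 66 of 1476 coding bases compared (chr19:39807542-39807631, chr19:39643619-39643708, chr19:39739403-39739492 and chr19:39881473-39881562, GRCm38, minus strand).
Cyp2c40: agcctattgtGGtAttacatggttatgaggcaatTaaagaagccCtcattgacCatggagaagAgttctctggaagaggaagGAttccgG
Cyp2c67: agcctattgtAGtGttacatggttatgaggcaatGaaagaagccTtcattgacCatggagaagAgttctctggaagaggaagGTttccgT
Cyp2c68: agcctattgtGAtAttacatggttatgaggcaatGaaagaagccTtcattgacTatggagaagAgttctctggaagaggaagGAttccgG
Cyp2c69: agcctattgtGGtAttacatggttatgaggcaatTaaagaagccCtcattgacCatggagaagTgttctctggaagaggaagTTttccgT

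Within this set the fitted changes were unequal. Cyp2c69 was at 77.6, 80.1, 139, 125 and 114 CPM in controls and 31.2, 16.4, 53.2, 49.0 and 21.1 CPM after CD95-Ab, with -1.65 ± 0.32 (SE, FDR = 0.00127). Cyp2c40 was at 190.1, 175, 432, 403 and 409.8 CPM and 96.2, 60, 167, 151 and 71.7 CPM, with -1.56 ± 0.35 (SE, FDR = 0.00327). Both had separate groups, as did Cyp2c68, with -1.08 ± 0.19 (SE, FDR = 0.000723). Cyp2c67 was at 260.1, 324, 279.8, 321 and 238 CPM in controls and 269, 294, 203, 253 and 248 CPM after CD95-Ab. These ranges overlapped, and its log2 fold change of -0.17 ± 0.14 (SE, FDR = 0.349) did not pass the test and turned to 0.33 on the hepatocyte marker scale. The sum of the set was 820.2, 917, 1258, 1278 and 1121 CPM in controls and 537, 495, 621, 695 and 499.5 CPM after CD95-Ab, without overlap.

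Outside that set, Cyp2c23, an epoxygenase of arachidonic acid, and Cyp2c38 were lower with separate groups, with -0.999 ± 0.19 (SE, FDR = 0.00125) and -1.03 ± 0.19 (SE, FDR = 0.000838). Cyp2c70, which makes muricholic acids from bile acids, was at 587 ± 174 CPM and 529.6 ± 82.3 CPM (SD, n = 5). Its log2 fold change of -0.15 ± 0.20 (SE, FDR = 0.572) did not pass the test and was 0.31 on the hepatocyte marker scale. Cyp2c54 (-0.76, FDR = 0.0558) and the retinoic acid hydroxylase Cyp2c39 (-0.81, FDR = 0.0505) lay just outside the threshold. Cyp2c54 passed it in 5 other scalings, filters or tests (FDR from 0.0168 to 0.0398), and without saline mouse 1 (FDR = 0.0265), saline mouse 2 (FDR = 0.0244) or CD95-Ab mouse 4 (FDR = 0.0187). Cyp2c39 passed it in 6 other scalings, filters or tests (FDR from 0.0262 to 0.0485), and when the same mice were left out, at an FDR of 0.0219, 0.0395 and 0.0428.

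The Cyp2d subfamily, whose human counterpart handles many alkaloid-like drugs, was lower throughout. All 8 members on chromosome 15 were tested and called, with log2 fold changes from -1.53 to -0.40, while 22.0% of all genes tested were lower. On the hepatocyte marker scale 2 remained past the threshold (Cyp2d22 and Cyp2d34), and Cyp2d40 (-0.40, FDR = 0.0177) turned to 0.0915. Cyp2d22 was at 198, 181, 193, 196 and 231 CPM in controls and 82.4, 77.5, 115, 126 and 81.8 CPM after CD95-Ab, with -1.05 ± 0.16 (SE, FDR = 0.000252). Cyp2d10 and Cyp2d26 also had separate groups, with -0.72 ± 0.14 (SE, FDR = 0.00159) and -0.53 ± 0.13 (SE, FDR = 0.00439). The abundant male-biased Cyp2d9 went from 924 ± 232 CPM to 600.0 ± 88.2 CPM (SD, n = 5), with -0.62 ± 0.19 (SE, FDR = 0.0193) and overlapping groups. Cyp2d34, Cyp2d11 and Cyp2d12 stayed at or below 2.30 CPM in every mouse. Cyp2d34 had -1.53 ± 0.44 (SE, FDR = 0.0141) and Cyp2d11 had -1.002 ± 0.29 (SE, FDR = 0.0149). The call for Cyp2d12 (-1.06, FDR = 0.0295) was lost without saline mouse 2 or 5 or CD95-Ab mouse 1 or 2, at an FDR of 0.0651, 0.0511, 0.0505 and 0.0737.

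Of 4 tested members of the Cyp3a subfamily 1 was called lower, close to the 22.0% of all genes tested that were lower. All 4 estimates were below 0 on the TMM scale. The called gene was Cyp3a25, with -0.86 ± 0.31 (SE, FDR = 0.0369). Its level was 423, 427, 593, 587 and 670.4 CPM in controls and 126, 209.5, 299.5, 351 and 499 CPM after CD95-Ab. CD95-Ab mouse 5 reached the control range, and the call was lost without saline mouse 3, 4 or 5 or CD95-Ab mouse 2 or 3, at an FDR of 0.0659, 0.0592, 0.067, 0.089 and 0.0605. Its near copy Cyp3a59, 97.49% identical, missed the threshold with -1.11 ± 0.43 (SE, FDR = 0.0518). It passed in 6 other scalings, filters or tests (FDR from 0.0141 to 0.047), and without saline mouse 2 (FDR = 0.04), CD95-Ab mouse 3 (FDR = 0.0166) or CD95-Ab mouse 5 (FDR = 0.0425). On the hepatocyte marker scale neither was called, at -0.34 and -0.63.

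Family 1 holds the Ah receptor targets that oxidize polycyclic hydrocarbons. Of its 3 tested members 1 was higher and none was lower, against 25.4% and 22.0% of all genes tested. Cyp1b1 (ENSMUSG00000024087, chromosome 17, 79701537 to 79715061, minus strand), which is known mainly from cells other than hepatocytes, was at 0.588, 0.178, 0.451, 0.192 and 0.593 CPM in controls and 1.35, 0.892, 2.87, 0.484 and 0.996 CPM after CD95-Ab. CD95-Ab mouse 4 lay within the control range and the other 4 treated mice above it, and the log2 change was 1.66 ± 0.49 (SE, FDR = 0.0149), at levels of few counts. Cyp1a1, the classical Ah receptor target, was at 0.753, 0.623, 0.676, 0.885 and 1.11 CPM and 0.546, 1.02, 1.91, 0.404 and 0.886 CPM and did not pass the test, with 0.22 ± 0.38 (SE, FDR = 0.654). Its sign turned without CD95-Ab mouse 3, to -0.18.

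The fatty acid and eicosanoid P450s that were called were mostly lower. Of 23 genes of this list in the files, 19 were tested, 10 were lower and 1 was higher, against 22.0% and 25.4% of all genes tested. On the hepatocyte marker scale 8 were lower and 4 higher. The one higher gene was Cyp4f18 (ENSMUSG00000003484, chromosome 8, 71988482 to 72009626, GRCm38), a leukotriene ω-hydroxylase known from neutrophils and other myeloid cells. It was at 0.494, 0.504, 0.225, 0.231 and 0.222 CPM in saline-injected mice 1 to 5 and at 1.70, 2.68, 1.91, 2.06 and 2.68 CPM in mice 1 to 5 injected with CD95-Ab. Every treated mouse was above every control, and the log2 change was 2.70 ± 0.31 (SE, FDR = 2.92e-05). The summed neutrophil markers of the same mice were 7.01, 6.64, 4.93, 4.54 and 11.6 CPM and 114, 284, 479.7, 299 and 373 CPM, and their part in the rise of Cyp4f18 was not tested.

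Of the 6 tested members of the same subfamily, 3 were lower and 1, Cyp4f18, was higher, against 22.0% and 25.4% of all genes tested. Cyp4f15 was at 110.3, 96.97, 109, 104 and 116 CPM in controls and 25.7, 29.9, 49.3, 56.2 and 41.8 CPM after CD95-Ab, with -1.40 ± 0.20 (SE, FDR = 0.000151). Cyp4f14 was at 251, 238, 254, 269.8 and 193 CPM and 127, 111, 163, 119.7 and 124 CPM, with -0.91 ± 0.14 (SE, FDR = 0.000281). Cyp4f13 changed less but with little spread, from 55.4 ± 2.44 CPM to 38.1 ± 2.099 CPM (SD, n = 5), with -0.54 ± 0.09 (SE, FDR = 0.000534). All 3 had separate groups, and Cyp4f13 was not called on the hepatocyte marker scale (-0.051). Cyp4f16 (0.23, FDR = 0.345), Cyp4f17 (0.65, FDR = 0.095) and Cyp4b1 (0.66) did not pass the test and were called higher on that scale, at 0.73, 1.13 and 1.22, and Cyp4f17 was also called without CD95-Ab mouse 1 (FDR = 0.0169). Cyp4v3 and Cyp4x1 had values of -0.13 (FDR = 0.662) and -0.058 (FDR = 0.789), which turned to 0.34 and 0.45 on the hepatocyte marker scale.

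Single-gene subfamilies held some of the larger changes. Cyp2g1 (ENSMUSG00000049685, chromosome 7, 26808892 to 26821205), best known from olfactory mucosa, was at 2.61, 1.93, 1.30, 1.15 and 2.54 CPM in controls and 0.193, 0.0318, 0.119, 0.323 and 0.0664 CPM after CD95-Ab. All treated mice lay below all controls, with -3.76 ± 0.47 (SE, FDR = 6.13e-05). Cyp2u1, a fatty acid hydroxylase, was at 10.7, 12.3, 8.93, 9.51 and 3.73 CPM and 2.02, 1.62, 0.677, 1.78 and 5.25 CPM. Only saline mouse 5 and CD95-Ab mouse 5 broke the separation, and the log2 change was -1.96 ± 0.46 (SE, FDR = 0.00421). Cyp2r1, the vitamin D hydroxylase, was at 10.6 ± 0.978 CPM and 7.07 ± 1.32 CPM, with -0.59 ± 0.14 (SE, FDR = 0.00573) and -0.071 on the hepatocyte marker scale. Of the arachidonic acid epoxygenases of the Cyp2j subfamily, Cyp2j5 was lower with -0.47 ± 0.13 (SE, FDR = 0.0129), although its sign turned on the hepatocyte marker scale (0.031), while Cyp2j6 (-0.39, FDR = 0.0671) and Cyp2j9 (0.15, FDR = 0.759) did not pass the test. Cyp2j6 turned to 0.090 on the hepatocyte marker scale, whereas it passed the threshold in 3 other scalings, filters or tests (FDR from 0.0123 to 0.0499) and without saline mouse 2 (FDR = 0.0449) or CD95-Ab mouse 4 (FDR = 0.0377). Cyp2s1, at no more than 2.83 CPM, had 1.05 (FDR = 0.256).

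Sex-biased P450s were read in males only. Of 9 female-biased genes, 5 were tested and 4 were lower (Cyp2a4, Cyp2b9, Cyp2c40 and Cyp2c69), where 22.0% of all genes tested were. The median log2 fold change of the female-biased genes was -1.65, and 4 were lower on the hepatocyte marker scale too. Of 5 male-biased genes, 2 were lower (Cyp2d9 and Cyp2u1), 1 was higher and 2 did not pass the test. Over all genes tested, 22.0% were lower and 25.4% higher. The higher male-biased gene, Cyp7b1, an oxysterol hydroxylase outside families 1 to 4, had 1.42 ± 0.48 (SE, FDR = 0.029). On the hepatocyte marker scale 1 male-biased gene was lower and 1 higher.

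The controls differed among themselves in many of these genes. In 27 of the 56 tested members, 48.2%, saline mice 1 and 2 were the lowest pair of the 5 controls, which was so for 15.7% of all genes tested. The Cyp4a genes, Cyp2b9, Cyp2b10, Cyp3a11, Cyp2e1, Cyp1a2 and most tested Cyp2c genes were among them. The same mice were the highest pair in 5 members, 8.93% against 16.5% of all genes, namely Cyp2a4, Cyp2u1, Cyp4b1, Cyp4f16 and Cyp4f18. Among treated mice, CD95-Ab mouse 1 was the lowest in 24 of the 56 members, 42.9% against 22.6% of all genes, and the highest in none. CD95-Ab mouse 3 was the highest in 22, 39.3% against 22.4%, and CD95-Ab mouse 4 in 21, 37.5% against 28.7%. The spread within controls ranged from a coefficient of variation of 4.41% for Cyp4f13 and 4.66% for Cyp2d26 to 80.1% for Cyp4a14 and 94.98% for Cyp2a4.

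**Figure D4:**
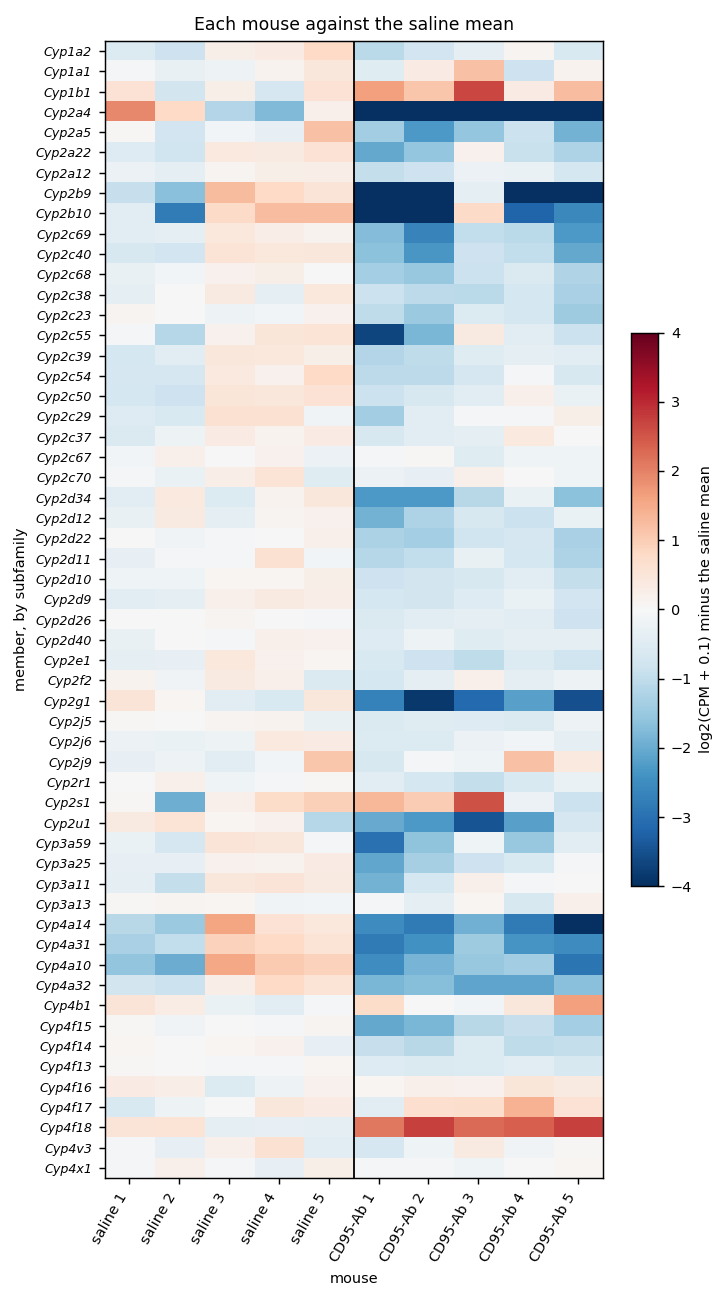
Log2(CPM + 0.1) of each tested member in each mouse minus the mean of the 5 saline-injected mice on the same scale, from blue (lower) to red (higher), with colours limited to 4 either way. Saline mice 1 and 2 are blue across the Cyp4a genes, and Cyp4f18 is red in all 5 mice injected with CD95-Ab.

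The other 19 members were too low to be tested, with at most 36 counts and 1.01 CPM in any mouse. Of these, Cyp2w1, Cyp2b23, Cyp2j11, Cyp2j12, Cyp4a29 and Cyp4f40 (6 members) had 0 counts in every mouse. The highest by mean CPM in controls was Cyp3a44, with 0.474 CPM against 0.210 CPM after CD95-Ab. The others were Cyp2b13, Cyp2b19, Cyp2c65, Cyp2c66, Cyp2j7, Cyp2j8, Cyp2j13, Cyp2t4, Cyp3a16, Cyp3a57, Cyp4f37 and Cyp4f39.

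Regulators of these genes changed unequally. Of 25 transcription factors known to act on P450 genes, 24 were tested. Among these 14 were lower and 5 were higher, against 22.0% and 25.4% of all genes tested. CAR (Nr1i3) was at 149, 179.6, 196, 187 and 243 CPM in controls and 24.3, 12.1, 15.0, 44.9 and 23.7 CPM after CD95-Ab, without overlap, and had -2.99 ± 0.32 (SE, FDR = 2.06e-05). PPARα (Ppara) was at 68.2, 45.9, 92.0, 66.3 and 50.1 CPM and 30.7, 20.9, 30.0, 6.66 and 18.3 CPM, also without overlap, with -1.60 ± 0.35 (SE, FDR = 0.00261). Their partner RXRα (Rxra) was lower with -0.82 ± 0.21 (SE, FDR = 0.00641), a call that was lost on the hepatocyte marker scale (-0.34), whereas PXR (Nr1i2) and the hepatocyte factor HNF4α (Hnf4a) did not pass the test, with -0.28 (FDR = 0.222) and -0.34 (FDR = 0.157), and turned positive on that scale. Ahr rose by 0.50 ± 0.14 (SE, FDR = 0.0104), a call that was lost with limma on log2 FPKM. Hlf, Cebpa and Nr1h4 were lower and Nfe2l2 was higher, with -2.14, -1.63, -1.13 and 1.11. On the hepatocyte marker scale 11 of the 24 factors were lower and 5 higher. Changes in a regulator and in its targets were measured in the same mice, and no link between them was tested.

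Genes that serve P450 enzymes were also read. Of 6 redox partners, 5 were lower on the TMM scale, where 22.0% of all genes tested were, and none was called on the hepatocyte marker scale. Cyb5b and Pgrmc1 passed narrowly, with -0.44 (FDR = 0.0496) and -0.36 (FDR = 0.0497). P450 reductase (Por) was at 299, 199, 367, 386 and 417 CPM in controls and 258, 165, 224, 139 and 129 CPM after CD95-Ab, with overlap and -0.87 ± 0.24 (SE, FDR = 0.0112). Cytochrome b5 (Cyb5a) missed the threshold with -0.55 ± 0.21 (SE, FDR = 0.0501) and passed it in 6 other scalings, filters or tests (FDR from 0.00539 to 0.0463), and without saline mouse 1 (FDR = 0.0463), saline mouse 2 (FDR = 0.0328) or CD95-Ab mouse 4 (FDR = 0.0131). Of 12 genes of heme supply and breakdown, 3 were lower and 1 was higher, against 22.0% and 25.4% of all genes tested. On the hepatocyte marker scale none was lower and 2 were higher. Alas1, which limits heme synthesis, was at 244 ± 123 CPM and 211 ± 84.5 CPM (SD, n = 5), with -0.21 ± 0.38 (SE, FDR = 0.668) and a sign that turned on the hepatocyte marker scale. Heme oxygenase (Hmox1), which degrades heme, was at 18.0, 28.8, 15.2, 26.6 and 47.7 CPM and 249, 228, 328, 338 and 200.1 CPM, without overlap, with 3.30 ± 0.31 (SE, FDR = 7.3e-06).

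**Figure D5:**
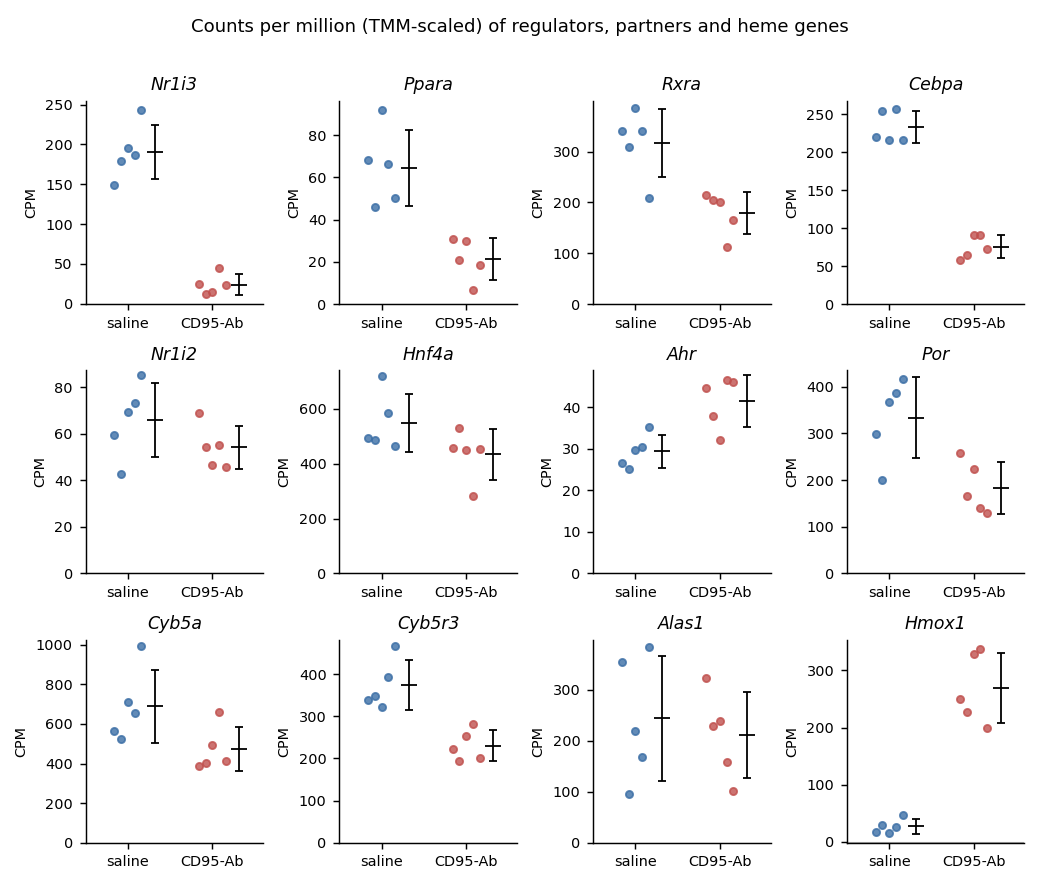
TMM-scaled CPM of 7 regulators, 3 redox partners and 2 heme genes, with 1 point per mouse and the group mean with its SD. Nr1i3, Ppara, Cebpa and Cyb5r3 are lower and Hmox1 is higher in every mouse injected with CD95-Ab, while the groups overlap for Nr1i2, Hnf4a, Cyb5a and Alas1.

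Among the 18 P450 genes of other families, 11 were tested, 4 were lower and 1 was higher, against 22.0% and 25.4% of all genes tested. Their median was -0.62, and 4 were lower and 3 higher on the hepatocyte marker scale. Cyp7a1, the rate-limiting enzyme of bile acid synthesis, was at 50.0 ± 13.0 CPM and 1.11 ± 0.637 CPM (SD, n = 5), with -5.46 ± 0.39 (SE, FDR = 1.38e-06). Cyp8b1, which directs that pathway to cholic acid, had -2.39 (FDR = 0.00122). Whether the members and these families differed in their changes was not tested.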

How the data were processed

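Liver RNA of 10 mice, 5 per group, was prepared from 500 ng with TruSeq reagents and read as pairs of 100 bases. The authors used RSEM 1.2.19 and deposited 1 file per mouse, with 2 values for every gene: the expected count and the FPKM. The deposited expected counts are whole numbers without normalization, and the deposited FPKM values are scaled by transcript length and library total. Reads that match more than 1 gene are divided among them by RSEM. A human annotation is named in the methods, yet the identifiers are those of mouse Ensembl, and the mouse release and build are not given in the sources used here. Symbols and positions came from GENCODE mouse release 21 (GRCm38), which matched 37606 of 38922 identifiers.

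Genes were kept by filterByExpr at a minimum count of 10, scaled by TMM and fitted by group alone with edgeR 4.0.16 (R 4.3.3) and its quasi-likelihood test. Each library came from another mouse, and no batch is labelled. Coding sequences were aligned with Biopython 1.88. The code was tested on simulated counts. Precision at low levels is limited by depth (3 counts in 1 mouse, for counting error only).

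The members and lists were chosen with earlier results of these data known. The genes named were the 10 members with the highest mean FPKM in controls, the 8 called members with the lowest log2 fold change, called higher members, members of the role lists, the 5 most abundant members that were not called, and near-identical pairs, plus chosen regulators, partners and other P450 genes by role and up to 6 per list by FDR. Members outside this rule were named, after their values were seen, to account for every member. The listed symbols Tf and Cyp2c44 had no match in the annotation, so no values were read under these names. Alternatives were other scalings, filters, tests, thresholds and prior counts, DESeq2 1.42.0, limma 3.58.1 on log2(FPKM + 0.1), a replicate block, and each mouse left out. Protein identity was planned, and identity of the coding sequence was used instead.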

Additional observations from a re-analysis of the deposited data

Results flagged for a closer look

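In 7 cases 1 mouse stood apart from the other 4 of its group, with a gap to its nearest neighbour of over 0.71 of the group's range. Such a gap is found by chance in about 1 of 20 groups, and 112 groups were examined. CD95-Ab mouse 3 stood apart with 8.32 CPM of Cyp2b10 against 0.128 to 0.731 CPM in the other treated mice, 3.15 CPM of Cyp2b9 against 0 to 0.161 CPM, and 7.52 CPM of Cyp4a31 against 2.79 to 3.92 CPM. Saline mouse 5 had 1183 CPM of Cyp2a5 against 308 to 541 CPM in the other controls, and 34.9 CPM of Cyp2j9 against 11.8 to 14.9 CPM. Saline mouse 4 had 1.42 CPM of Cyp2d11 against 0.706 to 0.86 CPM, and CD95-Ab mouse 5 had 396 CPM of Cyp2j5 against 303 to 323 CPM. CD95-Ab mouse 3 also had the highest summed hepatocyte, neutrophil, endothelial, stellate, cholangiocyte and erythroid markers of its group, and their part in these values was not tested.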

How the results depend on the processing

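Of the 30 members called lower, 26 kept the call with each mouse left out, and 17 kept it also under each other scaling, filter, test and prior count that could be fitted for them (14 in all of these settings, while Cyp2a4, Cyp2d34 and Cyp2g1 were not tested with 10 counts required in every mouse), while 9 of the 26 lost it only on the hepatocyte marker scale. On that scale 18 members were lower and 5 higher, and 2 were higher with a log2 fold change of 2 or more. With at least 10 counts required in every mouse, which removes low members, 4 were lower by 2 or more and none was higher (0 by FDR and 0 with the fold change; the members called higher before were not tested). At an FDR of 0.01, 1 member was higher, and at a log2 threshold of 1, 18 were lower and 2 higher. Leaving out 1 mouse gave 26 to 35 lower and 2 to 3 higher, 5 to 7 lower and 1 to 1 higher past the fold change, and a change of the members' share of counts of -1.02 to -0.75 percentage points around -0.89. Mice of the same number did not deviate together (correlations from -0.27 to 0.26), so numbers were not taken as pairs. With a replicate block 35 members were lower and 3 higher. The calls added by it were Cyp2a22, Cyp2b10, Cyp2c39, Cyp2c54 and Cyp3a59 (lower) and Cyp4f17 (higher).

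The hepatocyte marker scale raises values by construction, by similar but not equal amounts from gene to gene. Signs turned on it for Cyp2c29 (0.15), Cyp2c37 (0.30), Cyp2c50 (0.008), Cyp2c67 (0.33), Cyp2c70 (0.31), Cyp2d40 (0.0915), Cyp2f2 (0.18), Cyp2j5 (0.031), Cyp2j6 (0.090), Cyp3a11 (0.060), Cyp3a13 (0.37), Cyp4v3 (0.34), Cyp4x1 (0.45), Alas1 (0.26), Nr1i2 (0.21) and Hnf4a (0.15). Of these, only Cyp2d40 and Cyp2j5 were called on the TMM scale. Signs also turned when 1 mouse was left out. The log2 fold change of Cyp1a1 reached -0.18 without CD95-Ab mouse 3, that of Cyp2j9 ran from -0.23 (without CD95-Ab mouse 4) to 0.55, that of Cyp4v3 from -0.26 to 0.020 (without saline mouse 4), that of Cyp4x1 from -0.16 to 0.0051 and that of Alas1 from -0.42 to 0.0086 (both without saline mouse 5). These genes were not called in any of those fits. Values of near-identical members rest on the authors' split of shared reads, and members under 1 CPM on few counts.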
